A study of Mus musculus with 6 samples.

Results

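The RNA-seq comparison of Ybx1 cKO and control cortex at E18.5 was examined for 10 genes of the m6A pathway. They were chosen by symbol and make up 10 of the 17348 genes with a value in these libraries. Of the 10, 3 encode m6A writer subunits (Mettl3, Mettl14 and Wtap), 2 encode erasers (Fto and Alkbh5), 2 encode YTH-domain readers (Ythdf1 and Ythdf2) and 3 encode the Igf2bp readers (Igf2bp1, Igf2bp2 and Igf2bp3). The cKO embryos carried Nestin-Cre and Ybx1 fl/fl. In these embryos exons 3 to 8 of Ybx1, which encodes an m5C reader, are deleted where the Nestin promoter drives Cre, that is, mainly in neural progenitors and their descendants. The control embryos were Ybx1 fl/fl littermates according to the study's description of its crosses, but are called wild type in its sequencing methods and WT in the sample records. No Cre-only group was analysed here. Each group had 3 libraries of purified mRNA, 1 per replicate, from dissected cortex. The floxed allele was made in C57BL/6J mice.

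N6-methyladenosine (m6A) is a methyl mark on adenosines of mRNA. Mettl3 carries the catalytic activity of the writer complex, Mettl14 helps to hold the RNA, and Wtap keeps the pair in nuclear speckles. Fto and Alkbh5 remove methyl groups, and reader proteins bind the mark and direct the fate of the transcript, which for Ythdf2 is decay. Igf2bp1, Igf2bp2 and Igf2bp3 are KH-domain RNA-binding proteins that read m6A and protect bound mRNAs from decay. Igf2bp1 and Igf2bp3 are typical of fetal tissues, and the Igf2bp proteins share mRNP complexes with Ybx1. In the cortex, the m6A machinery is known for timing the cell cycle of progenitors and the onset of differentiation.

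The Igf2bp genes are also known as targets of the let-7 microRNAs, which accumulate as tissues mature. The mature sequences of 3 let-7 microRNAs, from RefSeq on GRCm38.p6, are shown. Matches to their common seed were found in the Igf2bp genes and not in the other 7 genes. Capitals mark the seed, and the copies shown lie at chr13:48538239-48538260 (minus strand), chr15:85707325-85707346 (plus strand) and chr9:106178846-106178867 (plus strand).
mmu-let-7a-5p: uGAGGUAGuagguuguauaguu
mmu-let-7b-5p: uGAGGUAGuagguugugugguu
mmu-let-7g-5p: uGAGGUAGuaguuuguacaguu

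The reverse complement of this seed, CTACCTC, was searched on the sense strand of the 3′ UTR of 1 transcript per gene, the one with the longest coding sequence in GENCODE M21 (GRCm38). All 10 genes had such a transcript. Igf2bp1 held 4 matches in its 6337-base 3′ UTR, Igf2bp2 held 1 in 1784 bases, and Igf2bp3 held 1 in 2119 bases. The stretches that end in the match are shown 5′ to 3′ on the minus strand, with the match in capitals. All 6 lie in the 3′ UTR of the named gene.
Igf2bp1, chr11:95961779-95961800: gctgtgcgaagtaaaCTACCTC
Igf2bp1, chr11:95959358-95959379: cagcagtgctattaaCTACCTC
Igf2bp1, chr11:95958764-95958785: gtataaatggatgaaCTACCTC
Igf2bp1, chr11:95958141-95958162: acttttggttttaatCTACCTC
Igf2bp2, chr16:22059474-22059495: acacacaaataaaagCTACCTC
Igf2bp3, chr6:49086788-49086809: tgcatttttactcaaCTACCTC

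Of 16132 genes with a 3′ UTR, 8.7% held at least 1 match and 0.161% held at least 3. Among the 407 genes whose 3′ UTR was from 20% shorter to 25% longer than that of Igf2bp1, 33.7% held a match and 0.491% held as many as 4. These 407 genes include Igf2bp1 itself, which adds to both shares. For Igf2bp2 and Igf2bp3, the genes of such length, again with the gene itself, held a match in 12.2% and 13.5% of cases. No match was found in the other 7 genes, whose 3′ UTRs ran from 141 bases in Mettl3 to 4097 bases in Alkbh5. Among genes of such length, the share with a match was also low, from 0.81% for Mettl3 to 22.9% for Alkbh5. Lin28b and Hmga2, textbook let-7 targets, held 4 matches each. These matches describe the letters of the transcripts. Neither let-7 nor its binding was measured in these libraries.

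**Figure D1:**
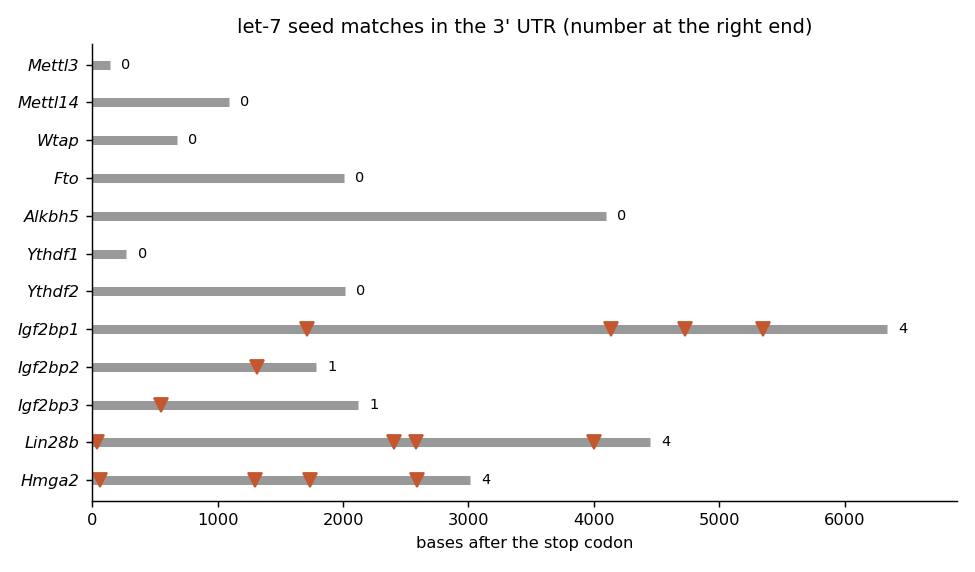
The 3′ UTR of each gene is drawn as a bar in bases after the stop codon, with a triangle at each let-7 seed match and the number of matches at the end of the bar. The 3 Igf2bp genes hold 4, 1 and 1 matches, Lin28b and Hmga2 hold 4 each, and the other 7 genes hold 0.

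The libraries held between 15091951 and 16885451 estimated counts. The targeted gene, Ybx1, ranged from 956 to 1300 CPM (counts scaled to a common library size by the TMM method) in the control libraries and from 24.0 to 24.9 CPM in the cKO libraries. Control replicate 2 stood apart from the other 5 libraries in its length trend. Relative to each gene's mean over the 6 libraries, its log2 CPM changed by -0.253 for each doubling of transcript length. The same slope was 0.0308 to 0.0991 in the others. Because the slopes are relative to that shared mean, a low slope in any library raises those of the others. Results are also given without control replicate 2 because of this trend. Transcripts of 4 Y-linked genes were at 352 counts or more in every control library, and were at 22 or fewer in every cKO library, so that genotype and sex cannot be told apart. None of the 10 genes lies on X or Y, but this does not separate genotype from sex. Fmr1 and Rbmx, among the other m6A readers examined below, lie on X. The cortical markers Emx1, Tbr1 and Neurod6 had mean levels of 58.3, 188 and 1030 TPM in control and 71.2, 190 and 1020 TPM in cKO cortices. The choroid plexus markers Ttr, Folr1, Kl and Clic6 summed to at most 0.5 TPM. In these bulk samples, fewer cells of a type and less RNA per cell cannot be told apart.

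All 10 genes were well detected, with 347 to 2525 estimated counts per library, and all passed the filter on low counts. The counting error of a single value was therefore at most 5.37%. Differences were tested with edgeR's quasi-likelihood test over 13570 genes, with Benjamini-Hochberg adjustment and a threshold of 0.05. None of the 10 genes passed (0 of 10, against 0.0737% of all genes tested), and 0 of the 10 passed with DESeq2 (0.73% of all genes) or with edgeR's exact test (0.715%). The count was also 0 of 10 without control replicate 2 (0.891% of all genes) and with a correction of each library for transcript length and GC content (1.54%). At an unadjusted p under 0.05, 1 of the 10 was called, Alkbh5, against 6.62% of all genes. The median log2 fold change of the 10 genes was 0.03, beside 0.00 over all genes tested, with 5 genes above and 5 below 0. The 95% intervals of the 10 fold changes reached from 0.768-fold to 1.45-fold, so that each lay within 1.5-fold in either direction, and 9 of the 10 included no change.

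**Figure D2:**
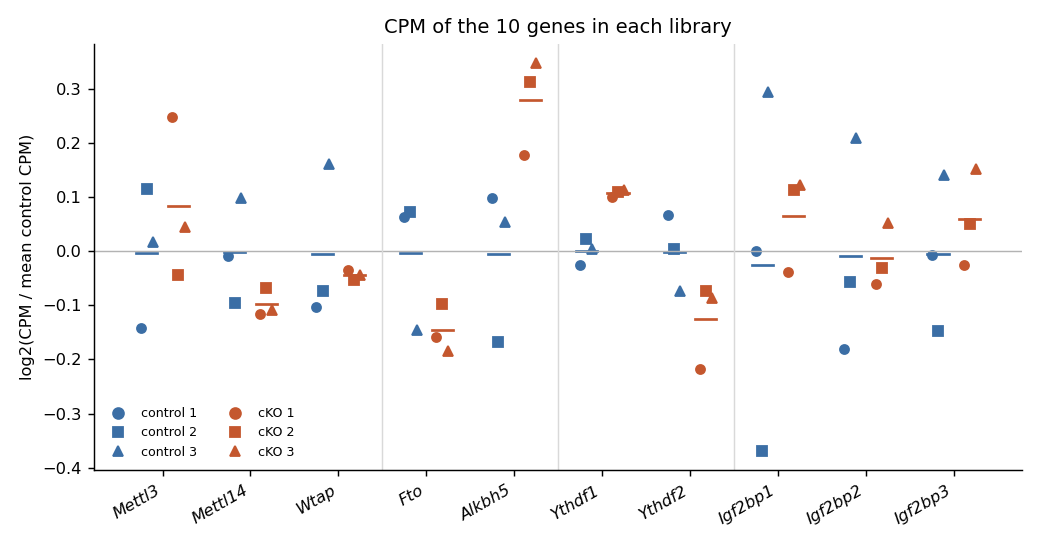
CPM of each gene in the 6 libraries, as the log2 ratio to the mean control CPM, with a symbol per replicate and a bar at the mean of each group's log2 ratios. Only Alkbh5 and Ythdf1 have no overlap between control (blue) and cKO (orange) libraries, and control replicate 2 is the lowest point of Igf2bp1.

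Among the writers, Mettl3, the catalytic subunit, was at 21.7, 25.9 and 24.2 CPM in control replicates 1 to 3 and at 28.4, 23.2 and 24.7 CPM in cKO replicates 1 to 3. The highest value was that of cKO replicate 1, and the other cKO libraries lay inside the control range. The log2 fold change was 0.09 (SE 0.132, 95% interval -0.21 to 0.38, edgeR adjusted p = 0.919). Mettl3 (chr14:52294841-52305128, minus strand) shares exonic sequence with Tox4 on the opposite strand, and its estimated counts were whole numbers in 0 of 6 libraries, whereas those of the other 9 genes were whole in all 6. Since the sources used here do not state whether strand was used in counting, reads of Mettl3 and Tox4 may not be separable, and the Mettl3 values are uncertain to that extent.

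Mettl14, the partner that supports RNA binding, was at 39.1, 36.8 and 42.1 CPM in control and 36.3, 37.5 and 36.5 CPM in cKO libraries. The cKO values spanned little more than 1 CPM, and control replicate 2 lay between them. The estimate for Mettl14 was a log2 fold change of -0.10 (SE 0.104, 95% interval -0.33 to 0.14, edgeR adjusted p = 0.896). It was -0.14 without control replicate 2.

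Wtap, the adaptor of the complex, was at 144, 147 and 173 CPM in control and 151, 149 and 150 CPM in cKO libraries. All cKO values lay within the control range, which control replicate 3 stretched upwards. This gave a log2 fold change of -0.05 (SE 0.109, 95% interval -0.29 to 0.20, edgeR adjusted p = 0.948), and it was 0.04 without that library.

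Of the erasers, Alkbh5 (chr11:60536381-60558512, plus strand) gave the lowest p of the 10 genes. It was at 80.4, 66.9 and 78.0 CPM in control replicates 1 to 3 and at 84.9, 93.2 and 95.5 CPM in cKO replicates 1 to 3. Every cKO library was above every control library, and the gap between the nearest pair, control replicate 1 and cKO replicate 1, was smaller than the spread within either group. Mean levels were 75.1 ± 7.24 CPM in control and 91.2 ± 5.56 CPM in cKO libraries (SD, n = 3 each). The log2 fold change was 0.28 (SE 0.113, 95% interval 0.02 to 0.54), with an unadjusted p of 0.0353 and an edgeR adjusted p of 0.691, so that the difference did not pass. Over the alternative settings its adjusted p ranged from 0.249 to 1 and its log2 fold change from 0.20 to 0.43. Without control replicate 2, its lowest library, the log2 fold change was 0.20 (adjusted p = 0.366). The exact permutation p was 0.1, the smallest that 3 against 3 libraries allow in a two-sided test, and 0.4 after adjustment over the 10 permutation tests made.

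Fto, the other eraser, was at 134, 135 and 116 CPM in control and 115, 120 and 113 CPM in cKO libraries. Control replicate 3 lay among the cKO values and the other control libraries lay above them. Its log2 fold change was -0.14 (SE 0.105, 95% interval -0.38 to 0.09, edgeR adjusted p = 0.854). The erasers thus had estimates of opposite sign, neither of which passed the test.

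The YTH-domain readers also had estimates of opposite sign. Ythdf1, a cytoplasmic reader, was at 75.8, 78.4 and 77.4 CPM in control and 82.7, 83.3 and 83.5 CPM in cKO libraries. The groups did not overlap, and the libraries of each group were close to one another. Its log2 fold change was 0.11 (SE 0.0935, 95% interval -0.10 to 0.32, edgeR adjusted p = 0.862), which edgeR weighs against a spread estimated partly from genes of like abundance. The exact permutation p was 0.1, the smallest possible, or 0.4 adjusted over the 10 tests. With Alkbh5, Ythdf1 made up the 2 of 10 genes whose groups did not overlap, both higher in cKO, against 14.3% of all genes tested (7.36% higher in cKO).

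Ythdf2, which recruits the CCR4-NOT deadenylase to m6A-marked mRNAs, was at 119, 114 and 108 CPM in control and 97.8, 108 and 107 CPM in cKO libraries. Control replicate 3 and cKO replicate 2 were level, and cKO replicate 1 was the lowest. For Ythdf2 the log2 fold change was -0.13 (SE 0.101, 95% interval -0.36 to 0.10, edgeR adjusted p = 0.859).

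Set against each other in TPM, a scale per transcript length, Ythdf1 made up 45.6%, 47.4% and 48.5% of the summed Ythdf1 and Ythdf2 level in control libraries and 52.7%, 50.3% and 50.7% in cKO libraries. Ythdf2 was thus the more abundant of the pair in each control library, and Ythdf1 in each cKO library. The mean share differed by 4.06 percentage points. The exact permutation p was 0.1, again the smallest possible, and 0.5 after adjustment over the 5 share comparisons made. Mettl3 made up 45.1% ± 3.12 of the summed Mettl3 and Mettl14 level in control and 48.3% ± 2.96 in cKO libraries (SD, n = 3 each, exact permutation p = 0.3, adjusted p = 0.75), with overlapping groups.

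Igf2bp1, the reader that was first described as the zipcode-binding protein of beta-actin mRNA, was at 48.8, 37.8 and 59.8 CPM in control and 47.5, 52.8 and 53.1 CPM in cKO libraries. The control libraries held both the lowest and the highest value, and their SD of 11 CPM compares with 3.15 CPM in cKO libraries (n = 3 each). The log2 fold change was 0.07 (SE 0.162, 95% interval -0.30 to 0.44, edgeR adjusted p = 0.946). It was -0.09 without control replicate 2 and -0.03 with the length and GC correction, so that its sign was not stable. The transcript of Igf2bp1 shown above is the longest among the 10 genes at 8378 bases.

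Igf2bp2, which also has a known part in translation of metabolic mRNAs, was at 30.3, 33.0 and 39.7 CPM in control and 32.9, 33.6 and 35.6 CPM in cKO libraries. All 3 cKO values lay inside the control range. Between the group means the log2 fold change was -0.01 (SE 0.128, 95% interval -0.30 to 0.28, edgeR adjusted p = 0.99).

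Igf2bp3 was at 48.0, 43.6 and 53.2 CPM in control and 47.4, 50.0 and 53.6 CPM in cKO libraries. The groups overlapped, and control replicate 2 was below every cKO library. The log2 fold change was 0.06 (SE 0.115, 95% interval -0.20 to 0.32, edgeR adjusted p = 0.932) and -0.01 without control replicate 2. Igf2bp3 shares exonic sequence with Malsu1 on the opposite strand, so its reads may also not be fully separable from those of that gene. Its counts were whole in all 6 libraries, however, whereas those of Mettl3 were whole in 0 of 6.

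**Figure D3:**
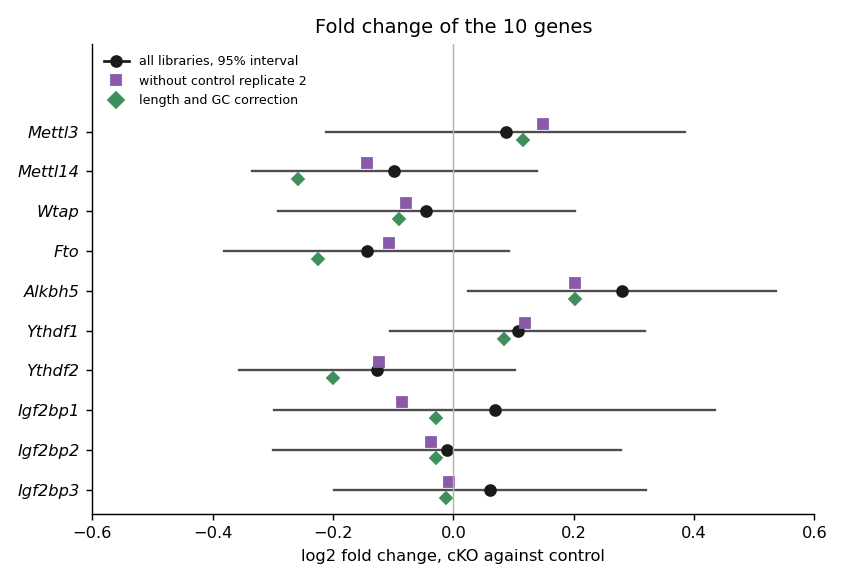
Log2 fold change of each gene, cKO against control, with its 95% interval (black), without control replicate 2 (purple squares) and after the length and GC correction (green diamonds). Only the interval of Alkbh5 lies to one side of 0, and the estimates for Igf2bp1 and Igf2bp3 move across 0 under both alternatives.

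The balance of the Igf2bp paralogs in TPM was similar in the groups. Igf2bp3 made up 43.8% ± 1.79 of their summed level in control and 44.3% ± 0.34 in cKO libraries, Igf2bp2 made up 34.5% ± 2.58 and 33.4% ± 0.599, and Igf2bp1 made up 21.7% ± 2.41 and 22.3% ± 0.613 (SD, n = 3 each). The mean shares differed by at most 1.11 percentage points, less than the SD of the control libraries, with exact permutation p of 0.9, 0.6 and 0.9 for Igf2bp3, Igf2bp2 and Igf2bp1 (0.9 each when adjusted over the 5 comparisons). In all 6 libraries the order was Igf2bp3, Igf2bp2, Igf2bp1. The lowest share of Igf2bp1, 18.9%, was that of control replicate 2, against 21.8% to 23.3% in the other 5 libraries.

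Across the 10 genes, mean control TPM differed 9.46-fold between the highest, Wtap at 123 ± 18.3, and the lowest, Igf2bp1 at 13.0 ± 3.92 (SD, n = 3). Wtap exceeded 91.5% of all genes in the control libraries and Igf2bp1 exceeded 49.4%. Below Wtap came Fto at 83.8 ± 5.68 TPM, and each of these steps held in all 6 libraries without overlap of the control ranges. Ythdf2 at 64.3 ± 5.5 and Ythdf1 at 57.4 ± 4.5 TPM followed, and their control ranges overlapped. Mettl14 at 36.3 ± 5.45, Mettl3 at 29.6 ± 2.22 and Alkbh5 at 28.1 ± 4.85 TPM came next, and the control ranges of neighbours overlapped. Mettl14 exceeded Mettl3 in 5 of the 6 libraries, and Mettl3 exceeded Alkbh5 in 3 of the 6. The 3 Igf2bp genes were the lowest, with Igf2bp3 at 25.9 ± 4.6 and Igf2bp2 at 20.4 ± 4.13 TPM. The control ranges of Alkbh5 and Igf2bp3, and of Igf2bp3 and Igf2bp2, overlapped, although the order held within each of the 6 libraries.

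In cKO libraries, 5 of the 10 genes kept their rank. Mean levels were 131 ± 3.61 TPM for Wtap, 84.0 ± 1.89 for Fto, 68.3 ± 0.297 for Ythdf1, 65.1 ± 3.34 for Ythdf2, 37.5 ± 2.24 for Alkbh5, 37.3 ± 0.52 for Mettl14, 35.0 ± 3.82 for Mettl3, 29.6 ± 1.72 for Igf2bp3, 22.3 ± 0.936 for Igf2bp2 and 14.9 ± 0.895 for Igf2bp1 (SD, n = 3). All 10 means were thus higher than in control, but on this scale the median of all genes was also higher in cKO, by 0.14 on the log2 scale (TPM with a pseudocount of 1). Ribosomal protein genes took up 13.3% to 16.7% of the TPM in control and 10.9% to 11.3% in cKO libraries. Relative to the median of all genes, the TPM difference was -0.14 for Fto, -0.12 for Ythdf2, -0.09 for Mettl14, -0.05 for Wtap and 0.00 for Igf2bp2, and 0.28 and 0.11 for Alkbh5 and Ythdf1, values close to those from CPM.

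**Figure D4:**
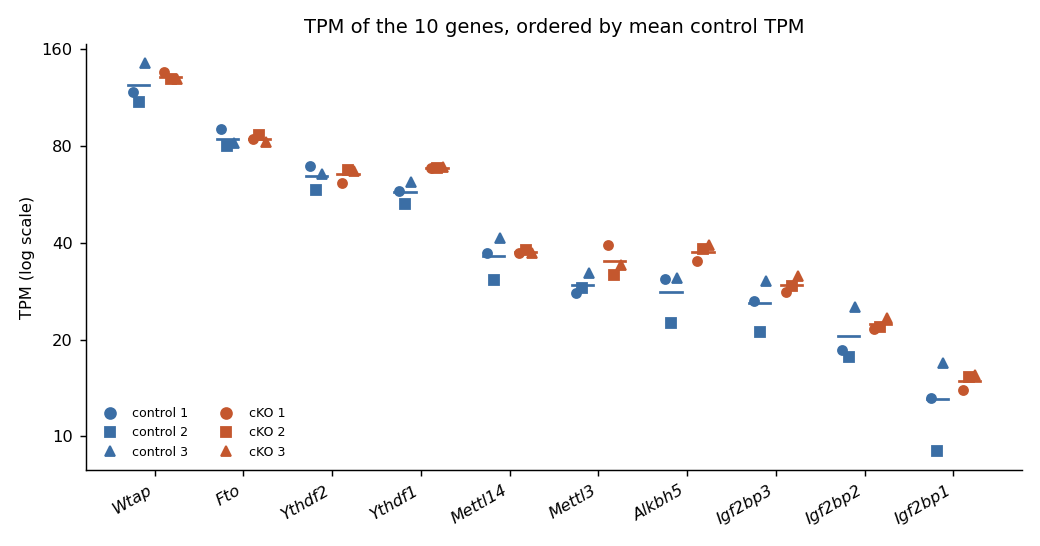
TPM of the 10 genes on a log axis, ordered by mean control TPM, with a symbol per replicate and a bar at each group's mean. Wtap is the highest and Igf2bp1 the lowest gene in every library, and control replicate 2 is the lowest control library for 9 of the 10 genes.

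Replicate spread was larger in control than in cKO libraries for 8 of the 10 genes in CPM, compared with 76.5% of all genes tested. In TPM, control replicate 2 was the lowest control library for 9 of the 10 genes, compared with 57.9% of all genes. In CPM it was the lowest for 4 of the 10, compared with 41.4%.

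The rest of the m6A pathway was examined through lists of related genes. Of 11 other writers and accessory subunits, none passed the adjusted threshold in either direction with edgeR, and the median log2 fold change was 0.08. At an unadjusted p under 0.05, 1 of the 11 was higher and 0 were lower, against 6.62% of all genes tested in either direction. That gene was Mettl5, the methyltransferase of 18S rRNA, with 4.27, 4.16 and 4.60 CPM in control and 6.01, 5.98 and 5.49 CPM in cKO libraries (log2 fold change 0.43, SE 0.167, edgeR adjusted p = 0.672). Its groups did not overlap. Nor did those of Mettl16 (log2 fold change 0.22, edgeR adjusted p = 0.796), also higher in cKO. These were 2 of the 11 genes, against 14.3% of all genes tested. The lowest p in the other direction was that of Pcif1, which methylates the cap-adjacent adenosine (log2 fold change -0.23, adjusted p = 0.816). Virma, the large scaffold of the writer complex, had a log2 fold change of -0.08 (adjusted p = 0.931).

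Of 11 other m6A readers, 0 passed in either direction and 0 had an unadjusted p under 0.05, with a median log2 fold change of 0.02. The lowest p values were those of Ythdc2, a reader with helicase activity (log2 fold change 0.27, edgeR adjusted p = 0.858), and Prrc2a (log2 fold change -0.09, adjusted p = 0.915). Ythdf3, the third cytoplasmic YTHDF paralog, had a log2 fold change of 0.04 (adjusted p = 0.969). Among 15 genes of the CCR4-NOT deadenylase and its adaptors, through which Ythdf2 acts, again 0 passed and 0 had an unadjusted p under 0.05. The median was 0.02, with Cnot11 at 0.14 (adjusted p = 0.85) and Cnot10 at -0.08 (adjusted p = 0.903) having the lowest p in each direction.

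Of 9 genes whose proteins share mRNPs with the Igf2bp proteins and Ybx1, only Ybx1 itself, the deleted gene, passed (log2 fold change -5.47, SE 0.164, edgeR adjusted p = 6.95e-07). The list had 2 of 9 genes above 0 and a median of -0.11, both counted with Ybx1, whose fall follows from its deletion. The lowest p above 0 was that of Syncrip, at 0.01 (adjusted p = 0.993). Pabpc1, the cytoplasmic poly(A)-binding protein, is named after its values were seen. It was at 376, 376 and 362 CPM in control and 271, 290 and 275 CPM in cKO libraries, groups that did not overlap (log2 fold change -0.41, SE 0.0997, adjusted p = 0.38). It passed without control replicate 2 (adjusted p = 0.0414) and with the length and GC correction (adjusted p = 0.0165). Over all alternatives its adjusted p ranged from 0.00535 to 1.

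Among 9 mRNAs known as Igf2bp targets, none passed in either direction, and the median log2 fold change was -0.10. Actb, the classic Igf2bp1 target, had a log2 fold change of 0.09 (edgeR adjusted p = 0.916) and Igf2, after which the family is named, had 0.01 (adjusted p = 0.989). Mapt, which encodes the microtubule protein tau, was at 1670, 1540 and 1570 CPM in control and at 905, 1020 and 977 CPM in cKO libraries. Its groups did not overlap, and the log2 fold change of -0.72 (SE 0.109) had an adjusted p of 0.0925. Without control replicate 2 the adjusted p of Mapt was 0.00236, and with the length and GC correction it was 0.000804. Over all alternatives it ranged from 1.19e-08 to 0.81.

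The let-7 side of the Igf2bp genes was represented by 9 tested genes of the Lin28, let-7 and Hmga axis, of which 0 passed and 0 had an unadjusted p under 0.05. Their median log2 fold change was -0.02. Hmga2, whose transcript carries 4 let-7 matches, was low, with 1, 0.703 and 1.64 CPM in control and 1.67, 1.64 and 1.21 CPM in cKO libraries (log2 fold change 0.45, SE 0.343, edgeR adjusted p = 0.857). Lin28b, with 4 matches, was at 2.57, 2.58 and 4.18 CPM in control and 3.65, 2.27 and 2.87 CPM in cKO libraries, which overlapped (log2 fold change -0.08, SE 0.278, adjusted p = 0.967). Hmga1 had the lowest p below 0 (log2 fold change -0.25, adjusted p = 0.819). By TPM, Lin28b at 1.20 and Hmga2 at 0.713 were both far below Igf2bp1 at 13.0 in control cortices.

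**Figure D5:**
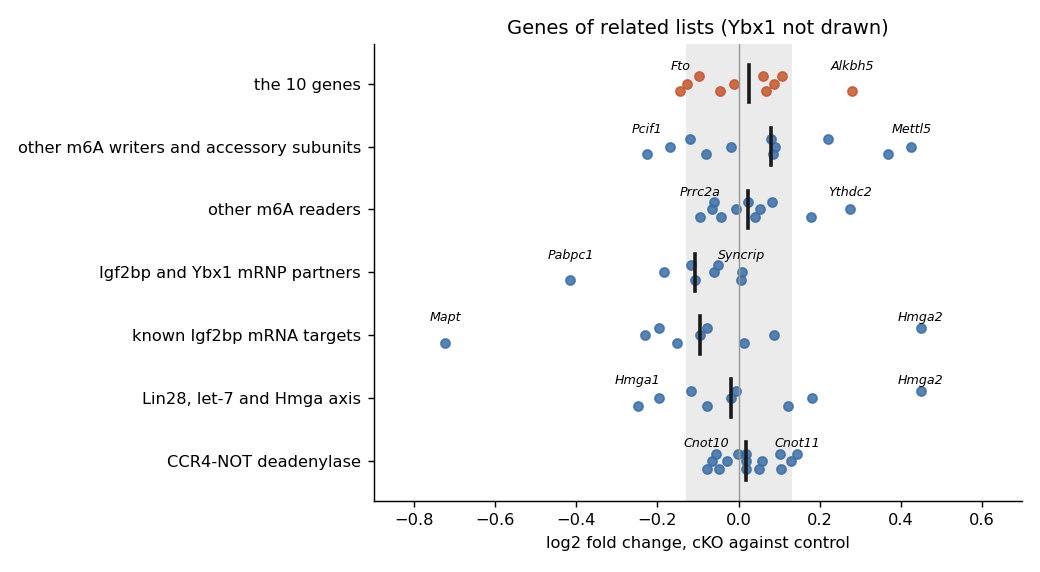
Log2 fold change of the tested genes of each list, cKO against control, with a black bar at the list's median and grey shading over the middle 50% of all genes tested (-0.13 to 0.13). The medians, which count Ybx1 in its list although it is not drawn, lie between -0.11 and 0.08. Mapt, at -0.72, is the gene farthest from 0 among those drawn.

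Cell type markers were compared between groups because the 10 genes are expressed in many cell types. Of the radial glia, intermediate progenitor, cycling and interneuron markers, none passed the adjusted threshold with edgeR. The median log2 fold changes of these lists were -0.13, 0.01, -0.15 and 0.07, and that of the radial glia list was -0.02 without control replicate 2. Of the cycling markers, 1 was above and 5 were below 0, and of the radial glia markers, 3 were above and 6 below. The radial glia marker Pax6 (log2 fold change 0.31, unadjusted p = 0.0204, edgeR adjusted p = 0.608) and the cycling marker Cenpf (log2 fold change -0.34, unadjusted p = 0.0468, adjusted p = 0.736) had an unadjusted p under 0.05. Cenpf passed with the length and GC correction (edgeR adjusted p = 0.0263) and without control replicate 2 (adjusted p = 0.0273). Slc17a7, a vesicular glutamate transporter of excitatory neurons, was at 33.0, 30.7 and 34.1 CPM in control and 55.5, 55.1 and 51.6 CPM in cKO libraries. Its log2 fold change of 0.73 had an edgeR adjusted p of 0.0722, which ranged from 3.73e-06 to 0.595 over the alternatives and was 0.00576 without control replicate 2. The 8 excitatory neuron markers had a median of -0.05, with 3 above and 5 below 0, and 0 passed with edgeR. The lists of astrocyte, oligodendrocyte precursor, microglia, striatal and erythroid markers also had 0 genes past the threshold. Among them, only the astrocyte marker Aqp4, at 36 to 103 counts, had an unadjusted p under 0.05 (log2 fold change 0.74, edgeR unadjusted p = 0.0392, adjusted p = 0.718). The astrocyte list had 2 genes above and 2 below 0, with a median of -0.04. Single libraries decided several medians: that of the striatal list was -0.43, but 0.03 without control replicate 2 and 0.10 without cKO replicate 2, and that of the oligodendrocyte precursor list was -0.22, but -0.02 without control replicate 2 and -0.55 without cKO replicate 1. Endothelial and pericyte markers had a median of 0.25 with 6 of 7 genes above 0, and 0 passed the adjusted threshold with edgeR. At an unadjusted p under 0.05, 2 of the 7 were higher, against 6.62% of all genes tested in either direction. The summed level of these markers was 335 to 407 CPM in control and 386 to 479 CPM in cKO libraries. The 5 meningeal fibroblast markers, of which 3 were tested, summed to 10.4 to 12.1 CPM in control and 13.6 to 14.4 CPM in cKO libraries. The mean of both sums was thus higher in cKO libraries, as were Alkbh5 and Ythdf1, although the endothelial sums overlapped. Their part in the values of Alkbh5 and Ythdf1 was not tested.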

How the data were processed

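mRNA from E18.5 cortices was sequenced on the DNBSEQ platform as 3 control and 3 Ybx1 cKO libraries, without a stated number of embryos per library, and groups and replicate numbers were taken from the submitters' labels. The authors deposited, per gene and library, an estimated count that was not normalized between libraries, a TPM value and an FPKM value. The submitters' processing notes name HISAT2 2.2.1, Bowtie2 2.4.5, RSEM 1.3.1 and the builds GRCm38 and mm10, without their order. Annotation and strandedness are not given in the sources used here. The group means of the authors and the FPKM values were not used. Every per-sample column was assigned to a library (0 unassigned).

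The members and gene lists were chosen with earlier results of these data known. Estimated counts (89.4% whole) were rounded, filtered with filterByExpr, scaled by TMM and tested in R 4.3.3 with the quasi-likelihood F test of edgeR 4.0.16, adjusting p by Benjamini-Hochberg. The standard error is the absolute fold change over the square root of F. CPM refers to the TMM-scaled library. A total of 3 counts, at 0.176 to 0.206 CPM, was taken as the detection limit, which covers counting error only. The common biological coefficient of variation was 0.147. Counts of replicate pairs differed by more than sampling noise (chi-square over its degrees of freedom, 3.52 to 65.4), so all libraries were counted separately. The study's methods describe the profiles as coming from 3 independent replicate experiments. Whether replicates of a group came from separate litters is not stated. The p-values rest only on the spread between these libraries, which edgeR estimates partly across genes. Shares of TPM and CPM differences of single genes were compared with exact two-sided permutation tests (scipy 1.17.1). TPM values were used for levels between genes and, as log2(TPM + 1) and log2(TPM + 0.1), for limma 3.58.1.

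The alternatives tried were a block on replicate number, RLE factors, TMM factors without the 87 ribosomal protein genes, the exact test of edgeR, DESeq2 1.42.0, a filter on CPM above 1 in 2 libraries or none at all, a correction of each library for transcript length and GC content (mgcv 1.9.3, values for 96.7% of genes), each library left out, and other thresholds. The median relative to all genes and the shares without each library were added after seeing the data. The numbers of the labels were not taken as pairs, since same-numbered libraries deviated together with correlations of 0.0884, 0.0615 and 0.23, not all over 0.1. Their mean was 0.127, against -0.0632 for differently numbered libraries across the groups. These values do not settle whether the numbers mark pairs. The scripts were tested on simulated counts.

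The text names all 10 members, Ybx1, each gene of a list that passed, the gene of each m6A or mRNP-related list with the lowest unadjusted p in each direction, and tissue markers where a level is given. The rule could be read to cover the marker lists, for which only some such genes are named. Other genes were named after their values were seen (Pabpc1, Virma, Mettl16, Ythdf3, Actb, Igf2, Lin28b, Pax6, Cenpf, Slc17a7 and Aqp4). Fmr1 and Rbmx were named because they lie on X. Lin28a was not analysed here, and results that need items withheld for evaluation are not reported here. Plots were made in Python 3.11.15 (matplotlib 3.10.9).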

Additional observations from a re-analysis of the deposited data

How the results depend on the processing

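None of the 10 genes passed the adjusted threshold of 0.05 under any of the 17 alternatives, and at an unadjusted p under 0.05 the count was 1 (Alkbh5). Over the 10 genes and 17 alternatives, 151 of 170 fold changes kept their sign and 19 did not, and Mettl3, Alkbh5 and Ythdf1 kept theirs in all 17. On log2(TPM + 1) and log2(TPM + 0.1), where the median of all genes was 0.14 and 0.16, the sign turned for Fto (0.01 and 0.01), Igf2bp2 (0.14 and 0.14), Mettl14 (0.05 and 0.05), Wtap (0.09 and 0.09) and Ythdf2 (0.02 and 0.02). With the length and GC correction, Igf2bp1 was at -0.03 and Igf2bp3 at -0.01, as they were with the replicate block added to it (-0.03 and -0.01). Leaving out 1 library at a time gave ranges of -0.09 to 0.24 for Igf2bp1, -0.09 to 0.11 for Igf2bp2, -0.01 to 0.14 for Igf2bp3 and -0.09 to 0.04 for Wtap. Igf2bp1 and Igf2bp3 turned without control replicate 2, Wtap without control replicate 3, and Igf2bp2 without control replicate 3 or cKO replicate 1. The median of the 10 genes was 0.17 on both TPM scales (0.03 and 0.02 relative to all genes) and ran from -0.06 to 0.10 with 1 library left out, the lowest without control replicate 2 and the highest without control replicate 3.

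The number of all genes past the threshold was 10. It came to 205 after correcting for length and GC, to 236 with the replicate block added to that correction, to 97 in the exact test of edgeR, to 99 in DESeq2, to 18 at an adjusted p under 0.1 and to 899 at an unadjusted p under 0.05. Leaving out 1 library gave 8 to 122 genes, with 122 without control replicate 2 and 19 without control replicate 3. The replicate block alone gave 11 genes and changed no call among the 10 genes. Of the list results, Pabpc1, Mapt and the markers Slc17a7 and Cenpf passed under some of the alternatives. Without control replicate 3, the medians of the mRNP partner and Igf2bp target lists were 0.00 and 0.02, against -0.11 and -0.10 with all libraries. The cause of these changes was not tested. With 1 library left out, the difference in share (percentage points, cKO minus control) ran from -0.752 to 1.46 for Igf2bp1, -2.47 to 0.0979 for Igf2bp2 and -0.49 to 1.27 for Igf2bp3, so that all 3 changed sign, the first pair without control replicate 2 and Igf2bp3 without control replicate 3. It kept its sign for Ythdf1 (3.27 to 4.74) and Mettl3 (1.6 to 4.97). The counting error of up to 5.37% and the spread between replicates both limit the precision for the 10 genes.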
